A study of Mus musculus with 57 samples.

Results

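The 10 genes described here encode the enzymes that make serine and pass its carbon into folate: Phgdh, Psat1 and Psph, the mitochondrial folate enzymes Shmt2, Mthfd2, Mthfd2l, Mthfd1l and Aldh1l2, and the cytosolic enzymes Shmt1 and Mthfd1. They were taken by name as enzymes of this pathway, with earlier results of these data known, and they are 10 of the 52853 genes with counts in the tables. RNA was sequenced from whole adipose tissue of male mice on a C57BL/6J background, as 41 tissue samples in 6 groups. Knock-in (KI) mice carried the R707W change in both copies of the endogenous Mfn2 gene in every cell, all from 1 CRISPR founder, and wild-type (WT) mice were littermates housed with them. Inguinal white adipose tissue (WAT) was taken from 7 WT and 6 KI mice fed chow and from 8 WT and 8 KI mice fed a high-fat diet (HFD, 45% of energy as fat), and brown adipose tissue (BAT) from 6 WT and 6 KI mice fed HFD. Diets were given for 6 months in all 6 groups, from 5 weeks of age per the labels, although other parts of the study give a later age. The sources used here do not say whether BAT and inguinal WAT came from the same HFD-fed mice, and comparisons of the depots treat them as separate mice. The comparisons ask how the Mfn2 change moves these enzymes, whether it moves mitochondrial and cytosolic enzymes unequally, and whether diet or depot alters that.

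Serine is made from the glycolytic intermediate 3-phosphoglycerate in 3 steps. Phgdh oxidises it, Psat1 transfers an amino group to it and Psph removes the phosphate. Serine hydroxymethyltransferase then moves a carbon from serine to tetrahydrofolate, which leaves glycine, with Shmt2 in mitochondria and Shmt1 in the cytosol. In mitochondria Mthfd2 or Mthfd2l oxidises the folate-bound carbon, Mthfd1l releases it as formate and Aldh1l2 oxidises it to carbon dioxide, while in the cytosol the single protein Mthfd1 carries several of these reactions and uses the formate for purine and thymidylate synthesis. Mthfd2 is known as a gene of proliferating and embryonic cells and as a target of the transcription factor Atf4 in mitochondrial stress, and Phgdh, Psat1 and Shmt2 are also known Atf4 targets.

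The 3 members called higher in more than 1 of the 3 KI against WT comparisons were Mthfd2, Phgdh and Psat1, so the 250 bases before their transcription starts are shown to let their promoters be compared (RefSeq, GRCm38.p6, each read 5′ to 3′ on the strand of its gene, the minus strand). Capitals mark the letters CCAAT, or ATTGG where they lie on the other strand, the core of the site of the general promoter factor NF-Y. The windows are chr6:83317605-83317854 for Mthfd2, chr3:98339970-98340219 for Phgdh and chr19:15925060-15925309 for Psat1, where the first of 2 listed starts was taken.
Mthfd2: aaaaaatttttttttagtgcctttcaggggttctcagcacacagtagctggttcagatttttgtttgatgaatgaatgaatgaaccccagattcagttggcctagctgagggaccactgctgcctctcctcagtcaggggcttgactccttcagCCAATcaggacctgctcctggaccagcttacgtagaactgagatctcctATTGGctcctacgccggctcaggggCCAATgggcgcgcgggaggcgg
Phgdh: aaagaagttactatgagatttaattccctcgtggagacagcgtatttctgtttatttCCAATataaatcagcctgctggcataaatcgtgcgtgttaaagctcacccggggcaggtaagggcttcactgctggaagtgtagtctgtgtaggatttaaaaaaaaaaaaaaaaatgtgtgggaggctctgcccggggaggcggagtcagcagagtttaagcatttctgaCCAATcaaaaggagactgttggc
Psat1: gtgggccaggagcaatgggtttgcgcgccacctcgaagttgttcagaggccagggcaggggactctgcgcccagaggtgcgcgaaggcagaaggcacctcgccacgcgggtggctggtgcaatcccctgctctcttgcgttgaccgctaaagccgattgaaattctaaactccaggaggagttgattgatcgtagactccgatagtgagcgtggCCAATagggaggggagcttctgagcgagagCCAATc

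RefSeq promoter windows of 300 bases, from 250 before to 50 after the start, were found for 9 of the 10 members, with 10 windows in all because Psat1 has 2. CCAAT, searched on both strands, was in 6 of the 10 windows and in 37.4% of all 32851 promoter windows. Mthfd2 held it at 3 places, whose outermost base lay 96, 47 and 22 bases before the start, and Phgdh at 2 places, 193 and 23 bases before it. The letters TGATGNAA of the combined C/EBP and Atf4 site were in 0 of the 10 windows and in 3.97% of all windows, and the E-box CACGTG was in 0 of the 10 and in 7.15% of all. These are letters in short windows and say nothing about which factors bind the genes.

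The counted reads per mouse ran from 8042591 to 10522554 in BAT, from 8668279 to 11720458 in inguinal WAT on chow and from 17572752 to 25680411 in inguinal WAT on HFD, where each mouse had 2 technical libraries but 1 column of counts. The sources used here do not say how that column was made from them. Levels below are read counts scaled to the length of the gene model and to the size of the library (RPKM), with TMM factors over all 41 samples together, and differences are log2 fold changes from edgeR with their standard error (SE) and an adjusted p, called at an adjusted p below 0.01. Mfn2 transcript ran from 22.3 to 48.7 RPKM over the inguinal libraries and from 66.7 to 109 RPKM in BAT. Its log2 fold changes between KI and WT were 0.34 on HFD, 0.36 on chow and 0.29 in BAT. None was called (adjusted p = 0.0114, 0.0840 and 0.113 by edgeR), though 5 of 8, 5 of 6 and 5 of 6 KI mice lay above all WT mice. Gene counts do not show the changed codon, so Mfn2 does not check the labels. The labelled depots held their markers: the 7 brown adipocyte genes summed to between 12181 and 22320 depth-scaled counts (CPM) in BAT and to at most 857 CPM in inguinal WAT. KI and WT differed in other cell markers too. The 6 fibroblast and preadipocyte markers summed to between 790.3 and 1213 CPM in KI against between 927.4 and 2691 CPM in WT mice on chow, to between 724.0 and 1153 against between 1027 and 1706 CPM on HFD, and to between 187 and 270 against between 217 and 550 CPM in BAT. The brown adipocyte markers in inguinal WAT on chow summed to between 151 and 857 CPM in KI and between 41.2 and 123 CPM in WT mice, which did not overlap, and Ucp1, which defines brown adipocytes, had 0 to 9 reads in these 13 mice. Of 6 macrophage markers, 5 on HFD, 6 on chow and 6 in BAT had negative log2 fold changes (medians -0.42, -0.58 and -0.51), and 1 was called, on HFD. Of 8 markers of dividing cells, 7 were negative on HFD, with 2 called, and 7 on chow, with 0 called (medians -0.59 and -0.20). In BAT all 8 were positive, with 0 called (median 0.46). The part of these shifts in the results for the 10 enzymes was not tested, and in whole tissue fewer cells of a type and less RNA per cell cannot be told apart. Skeletal muscle markers reached 56764 CPM in 1 library, KI mouse 4 on chow, and lymphocyte markers reached 542 CPM in KI mouse 2 on HFD. Leaving out the 9 mice with at least 1000 CPM of muscle or 100 CPM of lymphocyte markers is given below where it alters a call.

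Mthfd2, the mitochondrial methylenetetrahydrofolate dehydrogenase (chr6:83305691-83325908, minus strand, GRCm38), was the member with the largest difference in all 3 settings. In inguinal WAT on chow it ran from 1.57 to 5.04 RPKM with a median of 2.27 in the 7 WT mice and from 12.2 to 18.7 RPKM with a median of 16.7 in the 6 KI mice. On HFD the 8 WT mice ran from 1.80 to 3.76 RPKM with a median of 2.45, and the 8 KI mice from 11.6 to 15.7 RPKM with a median of 12.8. In BAT the 6 WT mice ran from 0.917 to 3.03 RPKM with a median of 1.09, and the 6 KI mice from 10.8 to 27.0 RPKM with a median of 16.1. The genotypes did not overlap in any setting: over all tables the lowest KI value, 10.8 RPKM, was above the highest WT value, 5.04 RPKM.

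The log2 fold change of Mthfd2 between KI and WT was 2.65 ± 0.251 (SE) in inguinal WAT on chow (6.30-fold, adjusted p = 3.53e-05), 2.42 ± 0.132 on HFD (5.36-fold, adjusted p = 6.27e-10) and 3.501 ± 0.292 in BAT (11.3-fold, adjusted p = 3.40e-05). It was called under each of the 21 alternatives run for chow, the 24 for HFD and the 20 for BAT. WT mouse 4 on chow stood apart from the other WT mice, with 233 Mthfd2 reads against 58 to 114 in the others, and it also had the highest macrophage marker sum of the 41 samples, 1837 CPM. Without it the log2 fold change on chow was 2.94, and the part of macrophage RNA in its Mthfd2 level was not tested. The WT levels of 2.51 ± 1.21 RPKM (SD, n = 7) on chow and 2.48 ± 0.619 (SD, n = 8) on HFD overlapped, as did those of the KI groups.

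Mthfd2l encodes the second mitochondrial enzyme of this step (chr5:90931117-91021368, plus strand), and none of its differences between KI and WT was called. It ran from 1.45 to 2.72 RPKM in WT and from 1.41 to 2.14 RPKM in KI mice on chow, from 1.32 to 1.70 and from 1.26 to 1.53 RPKM on HFD, and from 1.84 to 3.29 and from 1.72 to 2.61 RPKM in BAT. The genotypes overlapped in all 3 settings. The log2 fold changes of -0.27 ± 0.148 on chow, -0.08 ± 0.0758 on HFD and -0.44 ± 0.166 in BAT had adjusted p = 0.279, 0.485 and 0.117 by edgeR. Of the summed RPKM of Mthfd2 and Mthfd2l, Mthfd2 made up 33.2% ± 8.44 (SD, n = 6) in WT BAT and 88.2% ± 3.91 (SD, n = 6) in KI BAT. On HFD its share in inguinal WAT was 61.0% ± 6.20 (SD, n = 8) in WT and 90.04% ± 1.502 (SD, n = 8) in KI mice, and on chow it was 52.8% ± 13.5 (SD, n = 7) and 90.2% ± 1.42 (SD, n = 6).

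**Figure D1:**
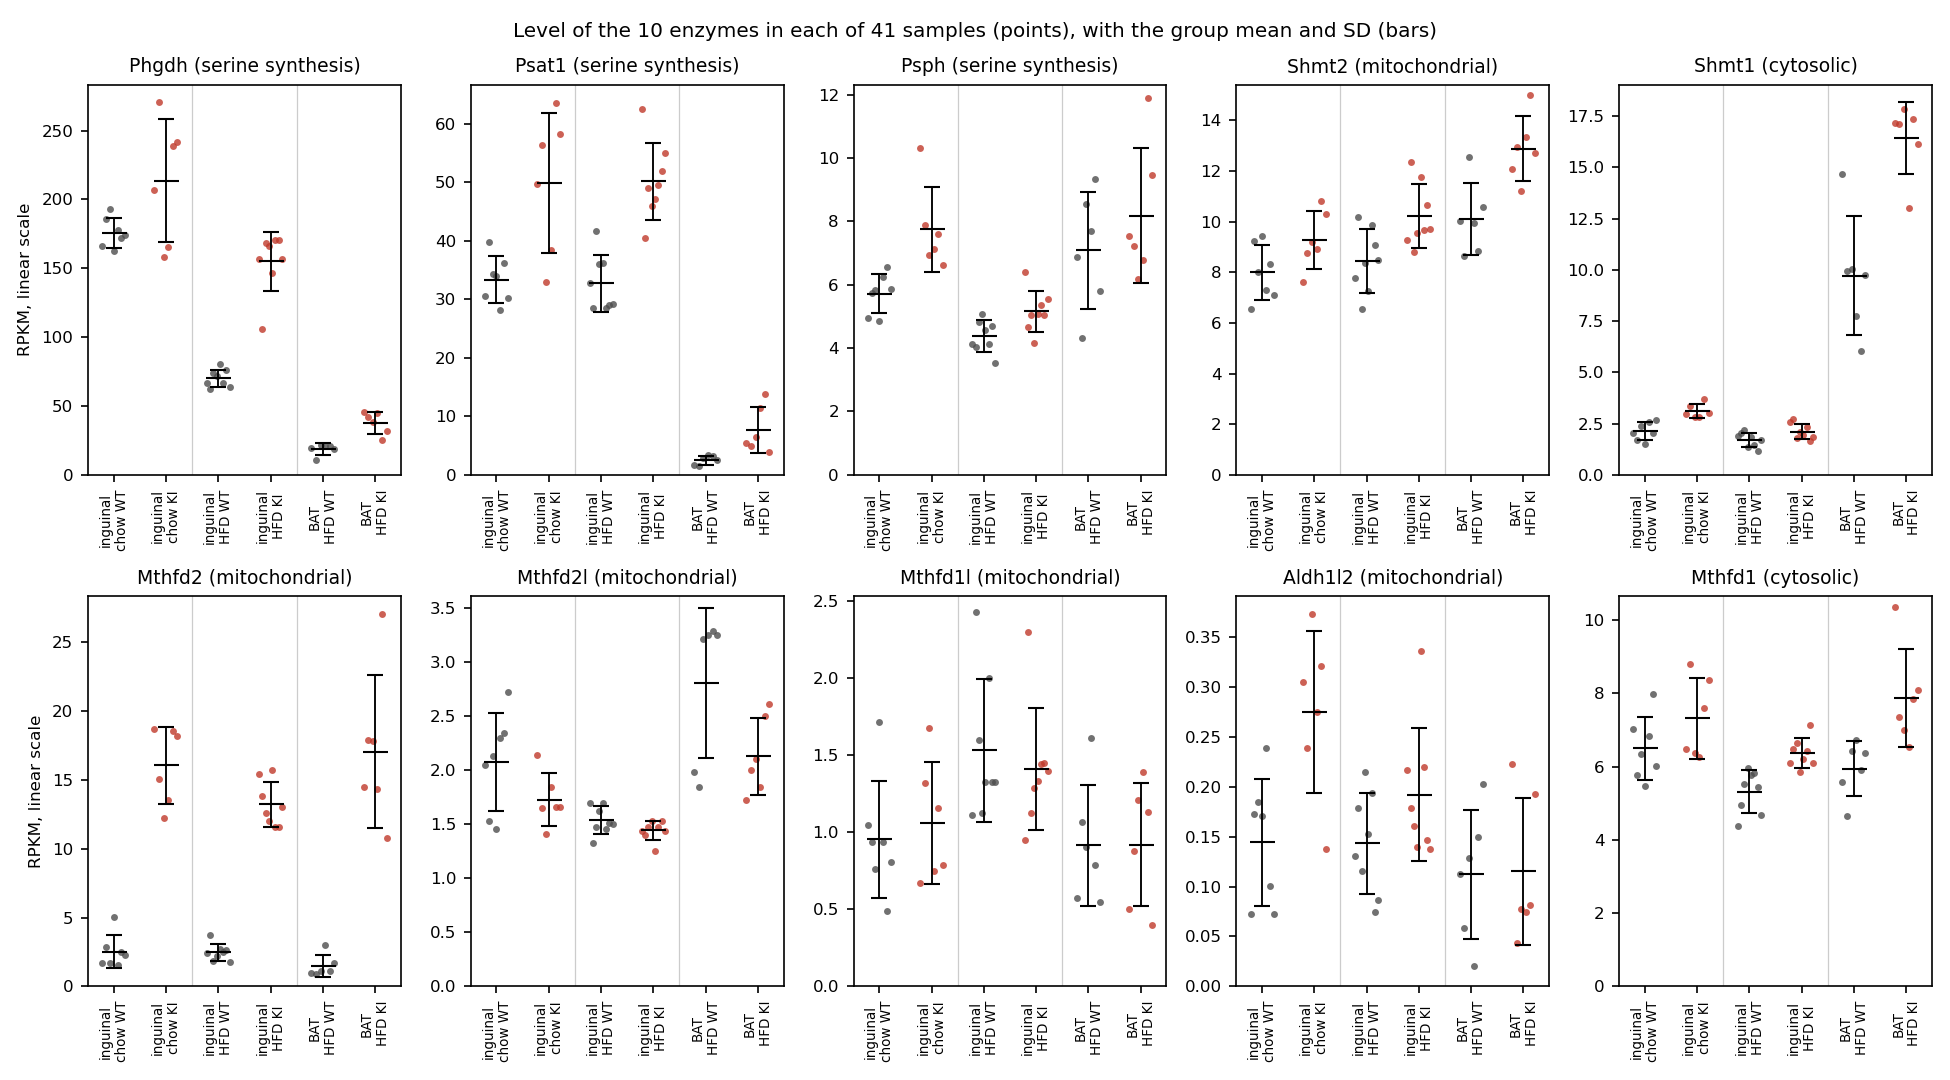
Level of each of the 10 enzymes in RPKM (linear axis) in each of the 41 samples, WT in grey and KI in red, with the mean and SD of each of the 6 groups in black. Mthfd2 separates all KI from all WT mice, Phgdh and Psat1 are low in BAT, and Shmt1 is highest in BAT.

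Mthfd1l, which releases formate from the mitochondrial folate carrier (chr10:3973118-4167081, plus strand), stayed between 0.398 and 2.43 RPKM over all 41 samples. Its log2 fold changes of 0.14 ± 0.288 on chow, -0.10 ± 0.189 on HFD and -0.03 ± 0.326 in BAT were smaller than their SE and none was called. It had 11 to 55 reads in the 12 BAT mice. Aldh1l2, the mitochondrial formyltetrahydrofolate dehydrogenase (chr10:83487450-83534140, minus strand), was the lowest of the 10 enzymes in every group. It had 1 to 12 reads per mouse in BAT, too few for the filter, and was not tested there. Its log2 fold change was 0.91 ± 0.316 on chow (adjusted p = 0.0897), with 5 to 19 reads in WT and 10 to 32 in KI mice, and 0.43 ± 0.248 on HFD (adjusted p = 0.240 by edgeR).

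Shmt2, the mitochondrial serine hydroxymethyltransferase (chr10:127517123-127522444, minus strand), was among the steadiest members, and its 6 group means lay between 7.99 and 12.9 RPKM. In WT and KI mice it ran from 6.54 to 9.43 and from 7.61 to 10.8 RPKM on chow, from 6.55 to 10.2 and from 8.79 to 12.4 RPKM on HFD, and from 8.66 to 12.6 and from 11.2 to 15.0 RPKM in BAT. Its genotypes overlapped in all 3 settings. The log2 fold changes were 0.20 ± 0.109, 0.28 ± 0.0980 and 0.31 ± 0.108 and were not called (adjusted p = 0.269, 0.0457 and 0.0880 by edgeR).

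Shmt1, its cytosolic partner (chr11:60788104-60811718, minus strand), was higher in BAT than in inguinal WAT. It ran from 1.17 to 2.18 RPKM in WT inguinal WAT on HFD and from 6.06 to 14.7 RPKM in WT BAT. Between KI and WT mice its log2 fold change was 0.54 ± 0.143 on chow (adjusted p = 0.0304), where all 6 KI mice lay above all 7 WT mice, 0.32 ± 0.141 on HFD (adjusted p = 0.119) and 0.71 ± 0.166 in BAT (adjusted p = 0.0183 by edgeR). In BAT 5 of 6 KI mice lay above all WT mice, and WT mouse 1, at 14.7 RPKM and with 2358 CPM of muscle markers, was the WT mouse among the KI values. Without that mouse the value in BAT was 0.88 (adjusted p = 0.00265), and without both WT mice with muscle markers it was 0.94 (adjusted p = 0.00293 by edgeR). It was called in 6 of 20 alternatives in BAT, and on chow by DESeq2 (adjusted p = 0.00564).

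Mthfd1, the cytosolic enzyme (chr12:76255298-76319803, plus strand), had group means between 5.31 and 7.87 RPKM. Its log2 fold change was 0.16 ± 0.108 on chow, 0.27 ± 0.0725 on HFD, where 7 of 8 KI mice lay above all WT mice, and 0.37 ± 0.125 in BAT (adjusted p = 0.379, 0.0126 and 0.0821 by edgeR). None was called, and the value on HFD passed the threshold in DESeq2 (adjusted p = 0.00348).

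Phgdh, the enzyme that commits 3-phosphoglycerate to serine (chr3:98313170-98339990, minus strand), was the most abundant member per length in all 6 groups. On chow the WT mice ran from 162 to 193 RPKM with a median of 174, and the KI mice from 158 to 270 RPKM with a median of 223. On HFD the WT mice ran from 62.2 to 80.1 RPKM with a median of 69.2 and the KI mice from 106 to 171 RPKM with a median of 161. In BAT they ran from 10.8 to 21.8 and from 25.4 to 45.4 RPKM, with medians of 20.4 and 40.1. The genotypes overlapped on chow and did not overlap in either HFD-fed depot.

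The log2 fold change of Phgdh was 1.15 ± 0.0884 on HFD (2.22-fold, adjusted p = 4.72e-08), 0.98 ± 0.173 in BAT (1.98-fold, adjusted p = 0.00339) and 0.27 ± 0.125 on chow (adjusted p = 0.194 by edgeR). The call in BAT was lost without WT mouse 6 (adjusted p = 0.0111) and held in the other 19 of 20 alternatives. The pseudogene Phgdh-ps1 had at most 2 reads in any mouse. In WT inguinal WAT Phgdh was lower on HFD than on chow by a log2 fold change of -1.32 ± 0.127 (adjusted p = 1.16e-10 by edgeR), a 2.50-fold difference. In KI mice that diet difference was -0.46 ± 0.131 (adjusted p = 0.00393), a call that was lost when these 2 groups were fitted alone. The 2 diets were separate tables with different depths, so a diet difference and a difference between tables cannot be told apart.

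Psat1, the aminotransferase (chr19:15904678-15947337, minus strand), ran from 28.2 to 39.8 RPKM in WT and from 32.9 to 63.6 RPKM in KI mice on chow, and from 28.4 to 41.6 and from 40.4 to 62.5 RPKM on HFD. In BAT it ran from 1.48 to 3.32 RPKM in WT and from 3.93 to 13.8 RPKM in KI mice, with no overlap. Its log2 fold change was 0.62 ± 0.0945 on HFD (1.54-fold, adjusted p = 1.09e-04) and 1.59 ± 0.313 in BAT (3.00-fold, adjusted p = 0.00965), both called, and 0.57 ± 0.143 on chow (adjusted p = 0.0230 by edgeR), not called. The BAT call was near the threshold and was kept in 1 of the 12 fits that left out a mouse, the one without KI mouse 6, with log2 fold changes from 1.36 to 1.74 over the 12. It was also lost without the WT mice 1 and 2 that carried muscle markers (log2 fold change 1.35, adjusted p = 0.0400 by edgeR). On chow Psat1 passed the threshold in DESeq2 (adjusted p = 0.00246), and by edgeR without KI mouse 3 (adjusted p = 0.00553) and without KI mouse 3 and KI mouse 4, the mice with lymphocyte and muscle markers (log2 fold change 0.76, adjusted p = 0.00142 by edgeR).

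Psph, the last enzyme of serine synthesis (chr5:129765558-129787449, minus strand), ran from 4.86 to 6.55 RPKM in WT and from 6.61 to 10.3 RPKM in KI mice on chow, with no overlap. Its log2 fold change there was 0.43 ± 0.106 and was not called by edgeR (adjusted p = 0.0208), though DESeq2 called it (adjusted p = 0.00437). On HFD it was 0.25 ± 0.0880 (adjusted p = 0.0541) and in BAT 0.17 ± 0.179 (adjusted p = 0.599 by edgeR), with overlap in both. The log2 fold changes of the 3 enzymes of the serine pathway in BAT ran from 0.17 for Psph to 1.59 for Psat1. Whether the 3 differed from each other was not tested in any setting.

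By count, 3 of 10 members were called higher and 0 lower in KI inguinal WAT on HFD, where 6.21% of all 16471 genes tested were called higher and 5.24% lower. On chow 1 of 10 was called higher and 0 lower, against 1.96% and 1.27% of 14629 genes. In BAT 3 of the 9 members tested were called higher and 0 lower, against 1.36% and 0.475% of 13267 genes. The median log2 fold change over the members was 0.30 on HFD, 0.35 on chow and 0.37 over the 9 tested in BAT, beside medians over all genes of 0.01, -0.01 and -0.01. At an unadjusted p under 0.05 edgeR had 7, 6 and 6 members higher and 0, 0 and 1 lower on HFD, on chow and in BAT. Over all genes, 5426 of 16471, 3560 of 14629 and 3242 of 13267 had such a p, in either direction. DESeq2 called 4 members higher and 0 lower in each of these comparisons. Of all genes it called 1390 of 19630, 667 of 16544 and 462 of 15345 higher, and 1364, 440 and 255 lower.

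**Figure D2:**
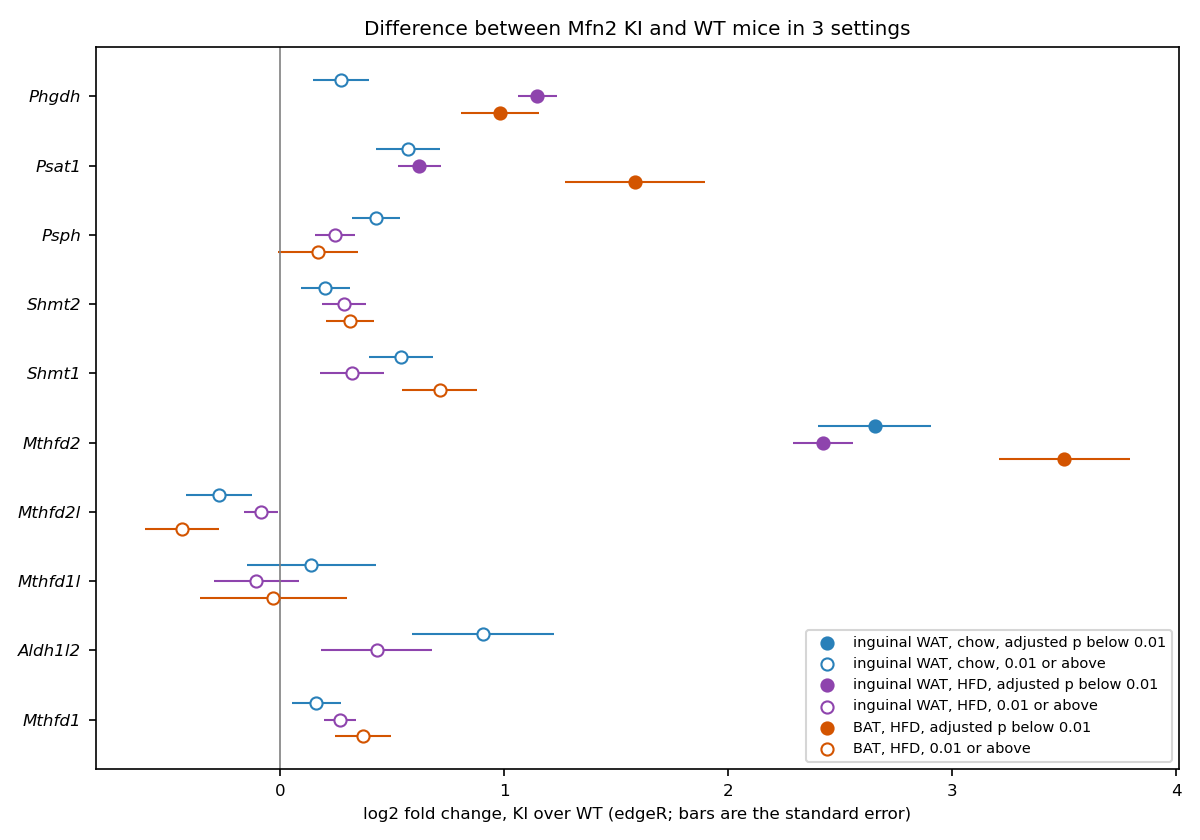
Log2 fold change of each enzyme between KI and WT mice with its standard error (bars), by edgeR, in inguinal WAT on chow (blue), inguinal WAT on HFD (purple) and BAT on HFD (orange), filled where the adjusted p was below 0.01. Mthfd2 lies between 2.42 and 3.501, Phgdh near 1 in both HFD-fed depots, and Mthfd2l at or below 0.

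Whether the KI difference itself depended on diet was tested as an interaction over the 29 inguinal mice. Phgdh was the only member called, and 0.632% of all 17400 genes were called. Its KI difference was larger on HFD than on chow by 0.89 ± 0.156 on the log2 scale (adjusted p = 0.00171 by edgeR), and it stayed called at 0.01 in the 34 other fits run, with values from 0.75 to 0.97, but not at a threshold of 0.001. Mthfd2, in contrast, had an interaction of -0.22 ± 0.263 (adjusted p = 0.730). Between BAT and inguinal WAT on HFD, 0 of 10 members were called by edgeR and 2.82% of all 17214 genes were. Of the 10 members, 2 had an unadjusted p under 0.05, Mthfd2 and Psat1, near the share over all genes, 3794 of 17214. DESeq2 called 1 member, Mthfd2, and 848 of all 16909 genes. The KI difference in BAT exceeded that in inguinal WAT by 1.12 ± 0.302 for Mthfd2 (adjusted p = 0.0207) and by 1.00 ± 0.300 for Psat1 (adjusted p = 0.0392). Mthfd2 was called without WT mouse 4 of BAT (adjusted p = 9.88e-04) or without KI mouse 6 of BAT (adjusted p = 0.00986 by edgeR).

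The diets and depots themselves were compared in 1 fit of the 6 groups, so these comparisons reuse the same mice. From chow to HFD in inguinal WAT, 2 of 10 members were called in WT mice, Phgdh and Mthfd2l, both lower on HFD, where 28.2% of 16201 genes were called. In KI mice 3 of 10 were called, Phgdh, Psph and Shmt1, all lower on HFD, where 31.0% of genes were called. Between BAT and inguinal WAT on HFD 6 of 10 members were called in WT mice and 7 of 10 in KI mice, while 57.8% and 60.9% of all genes were called, so the counts of members lay near those of all genes.

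The depots differed in opposite directions for enzymes of 1 pathway. BAT and inguinal WAT were separate tables with different depths, so a depot difference and a difference between tables cannot be told apart. In WT mice BAT had less Psat1 than inguinal WAT by a log2 fold change of -3.71 ± 0.228 (adjusted p = 1.61e-17), a 13.1-fold difference, and less Phgdh by -1.90 ± 0.141 (adjusted p = 4.00e-15). It had more Shmt1, by 2.51 ± 0.151 (adjusted p = 5.27e-18, 5.70-fold), more Mthfd2l, by 0.87 ± 0.130 (adjusted p = 2.34e-07), and more Psph, by 0.70 ± 0.135 (adjusted p = 2.035e-05 by edgeR). Mthfd2 was lower in WT BAT by -0.77 ± 0.253 (adjusted p = 0.00771), a call that was lost when the 2 groups were fitted alone. In KI mice the Psat1 difference was -2.71 ± 0.211 (adjusted p = 1.81e-14 by edgeR) and that of Mthfd2 was 0.36 ± 0.212 and not called.

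The order of the 6 groups differed between the members. For Mthfd2 the 3 KI groups stood first, BAT, inguinal WAT on chow and inguinal WAT on HFD, and overlapped each other, and the 3 WT groups followed, again overlapping. For Phgdh the order was KI on chow, WT on chow and KI on HFD, which overlapped in turn, then WT on HFD, KI BAT and WT BAT, each below the whole range of the group before it. Psat1 had KI on HFD, KI on chow, WT on chow and WT on HFD in overlapping order and then KI BAT and WT BAT, each apart. Shmt1 began with KI BAT and WT BAT, which overlapped, followed apart by KI on chow, and then, apart again, by the overlapping groups WT on chow, KI on HFD and WT on HFD. For the other 6 members every pair of neighbouring groups overlapped, and the highest group mean was between 1.48 and 2.45 times the lowest, against 20.0 times for Psat1, 11.6 for Mthfd2, 11.4 for Phgdh and 9.66 for Shmt1.

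To set mitochondrial against cytosolic enzymes within each mouse, log2 ratios of counts per length were taken for 5 pairs and compared between genotypes by exact 2-sided permutation tests, with p adjusted over the 15 tests. Mthfd2 over Mthfd1 was -1.47 ± 0.706 (SD, n = 7) in WT and 1.13 ± 0.262 (SD, n = 6) in KI mice on chow, -1.13 ± 0.377 (SD, n = 8) and 1.05 ± 0.224 (SD, n = 8) on HFD, and -2.13 ± 0.536 (SD, n = 6) and 1.07 ± 0.530 (SD, n = 6) in BAT. Every WT mouse had less Mthfd2 than Mthfd1 per length and every KI mouse had more, with no overlap. The KI and WT means differed by 2.60 on chow, 2.17 on HFD and 3.20 in BAT (exact permutation, adjusted p = 0.00350, 7.77e-04 and 0.00464). The last 2 rest on the smallest p these divisions allow, 1.55e-04 and 0.00216.

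Mthfd2 over Mthfd2l differed between KI and WT mice by 3.01 on chow, 2.53 on HFD and 3.97 in BAT, without overlap (exact permutation, adjusted p = 0.00350, 7.77e-04 and 0.00464). In BAT the ratio changed sides, from a mean of -1.02 ± 0.533 (SD, n = 6) in WT mice to 2.95 ± 0.475 (SD, n = 6) in KI mice. The other isoenzyme pairs had smaller differences. Shmt2 over Shmt1 differed by -0.35 on chow, -0.04 on HFD and -0.45 in BAT (exact permutation, adjusted p = 0.172, 0.907 and 0.0830), and Mthfd1l over Mthfd1 by -0.01, -0.38 and -0.43 (exact permutation, adjusted p = 0.984, 0.106 and 0.430). None of these 6 tests passed 0.05. Without WT mouse 1 of BAT the Shmt ratio there differed by -0.58 (exact permutation, adjusted p = 0.0144), toward the cytosolic enzyme. On HFD Mthfd1l over Mthfd1 passed 0.05 without KI mouse 2, at -0.48 (exact permutation, adjusted p = 0.0197), and without WT mouse 4, at -0.46 (exact permutation, adjusted p = 0.0456).

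**Figure D3:**
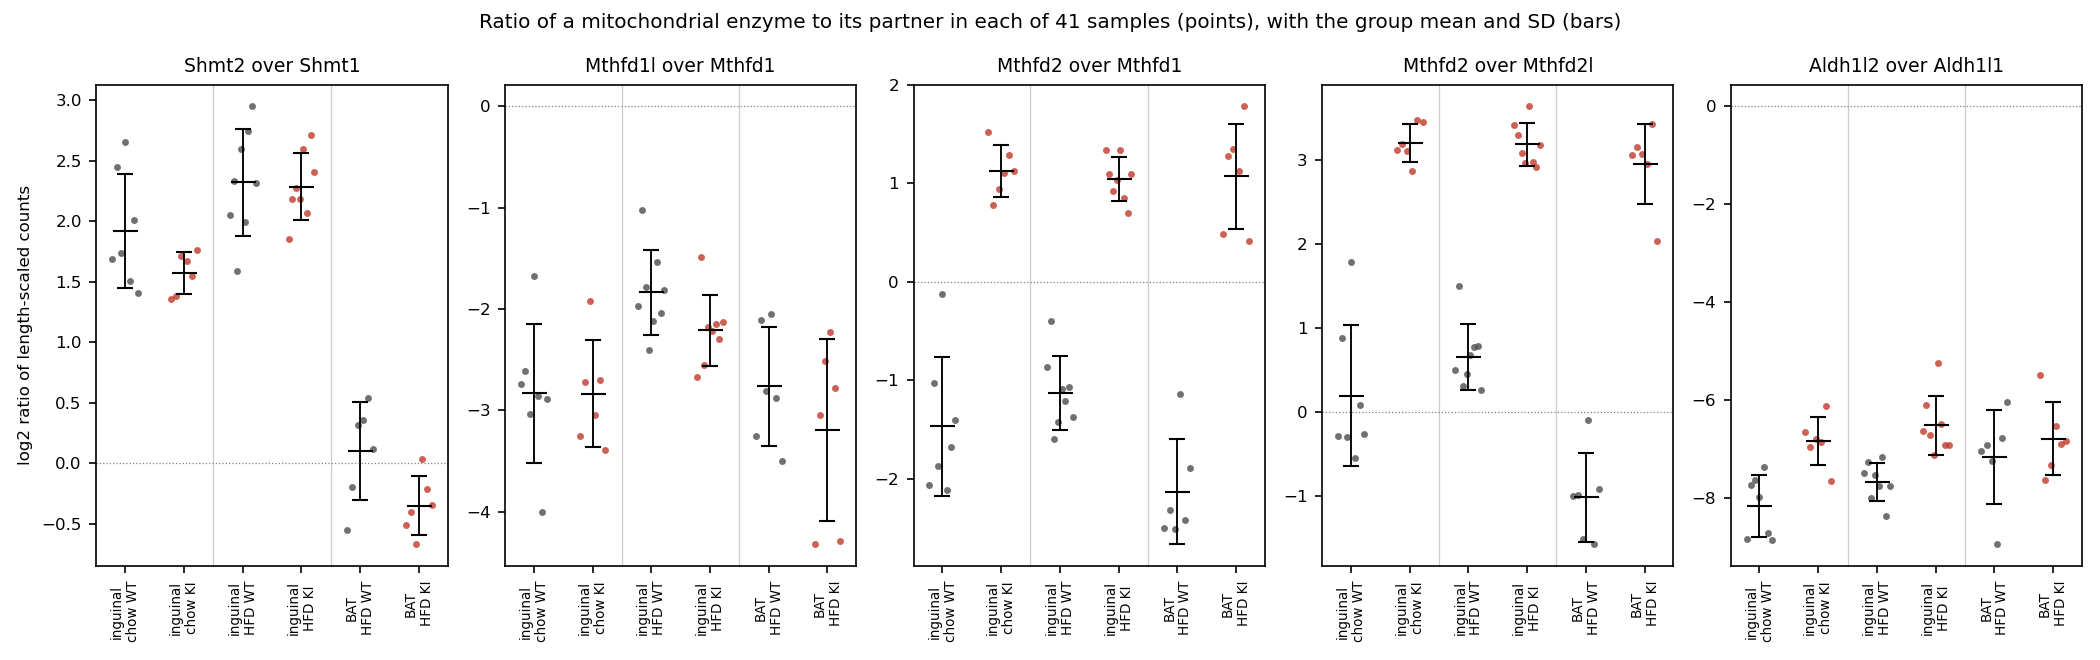
Log2 ratio of counts per length of each mitochondrial enzyme to its partner, cytosolic except for Mthfd2l, in each of the 41 samples, WT in grey and KI in red, with group mean and SD in black and the dotted line at equal levels. The 2 ratios with Mthfd2 separate all KI from all WT mice of each table, and Shmt2 over Shmt1 lies between -0.67 and 0.54 in BAT and above 1 in all inguinal libraries.

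Aldh1l2 was set against Aldh1l1, its abundant cytosolic partner, which is not one of the 10. That ratio was higher in KI mice by 1.15 on HFD and by 1.32 on chow and by 0.37 in BAT (exact permutation, adjusted p = 7.77e-04, 0.00656 and 0.574). On HFD, where Aldh1l2 itself was not called, Aldh1l1 fell from 28.8 ± 6.33 (SD, n = 8) to 17.4 ± 3.35 RPKM (SD, n = 8), a log2 fold change of -0.72 ± 0.137 (adjusted p = 9.73e-04 by edgeR). On chow and in BAT the Aldh1l1 value was -0.35 ± 0.120 and -0.29 ± 0.248, neither called.

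Summed over the 5 mitochondrial members, the level was 13.7 ± 2.10 RPKM (SD, n = 7) in WT and 28.4 ± 3.13 (SD, n = 6) in KI mice on chow, 14.1 ± 1.99 (SD, n = 8) and 26.5 ± 2.51 (SD, n = 8) on HFD, and 15.4 ± 2.27 (SD, n = 6) and 33.1 ± 6.69 (SD, n = 6) in BAT. Mthfd2 made up between 9.28% and 17.7% of that sum as a mean of the WT groups and between 49.9% and 56.3% as a mean of the KI groups. Without Mthfd2 the sum was 11.2 ± 0.967 and 12.3 ± 1.10 RPKM on chow, 11.7 ± 1.51 and 13.3 ± 1.56 on HFD and 13.9 ± 1.85 and 16.0 ± 1.55 in BAT (WT then KI, SD, with n as above). Shmt2 was 83.0% ± 4.37 (SD, n = 8) of the summed Shmt1 and Shmt2 level in WT inguinal WAT on HFD and 51.7% ± 6.96 (SD, n = 6) in WT BAT.

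Between mice of the same group, the members varied together only loosely. After the mean of each of the 6 groups was taken from the log2 level, the highest correlation of Mthfd2 with another member over the 41 samples was with Psat1, at r = 0.448 (rho = 0.392), followed by Shmt2, at r = 0.426 (rho = 0.394), while that with Phgdh was r = 0.0321 (rho = 0.0230). Phgdh and Psat1 gave r = 0.355 (rho = 0.477), and Psat1 and Psph r = 0.454 (rho = 0.413). The highest of the 45 pairs was Mthfd2l with Psph, at r = 0.568 (rho = 0.532), and the lowest Mthfd2l with Mthfd1l, at r = -0.340 (rho = -0.382). These mice share tables, depth and tissue makeup, and the values describe them only.

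Over the same 41 samples, with the mean of each table removed, the 5 genes most like Mthfd2 among 13034 were Aars (r = 0.943), Cyb5r1 (0.935), Eprs (0.931), Scd3 (0.930) and Aldh18a1 (0.927). Aars and Eprs encode cytosolic aminoacyl-tRNA synthetases, Aldh18a1 the enzyme that starts proline synthesis and Scd3 a stearoyl-CoA desaturase. Psat1 stood 66th, at r = 0.810. With the group means removed as well, the 5 values fell to between 0.313 and 0.514, so most of this likeness was the difference between KI and WT mice.

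Among 15 other folate enzymes, 13 were tested in inguinal WAT, and on HFD 1 was called higher, Sardh (0.58 ± 0.1001, adjusted p = 3.88e-04), and 2 lower, Aldh1l1 and Gcsh, a glycine cleavage protein (-0.42 ± 0.0782, adjusted p = 7.09e-04 by edgeR). On chow Sardh, which makes methylene folate from sarcosine in mitochondria, was called higher (0.57 ± 0.114, adjusted p = 0.00688), and in BAT 0 of 12 were called by edgeR, with 3 at an unadjusted p under 0.05 and 0 called by DESeq2. The list medians were -0.07, -0.12 and 0.05 for HFD, chow and BAT. Of 12 genes of the methionine cycle and transsulfuration, edgeR tested 9 on HFD, 9 on chow and 8 in BAT. It called 0 in each, with medians of 0.02, 0.26 and 0.09. Of those tested, 4, 4 and 1 had an unadjusted p under 0.05, to be read beside the counts over all genes given above. DESeq2 called 0, 2 and 0. Of 6 genes that use or break down serine edgeR tested 5 on HFD, 4 on chow and 4 in BAT. It called 0 in each setting, with 0, 0 and 2 at an unadjusted p under 0.05. DESeq2 called 1 on HFD, Sptlc3, which is named only because of that value and was not among the genes edgeR tested there.

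Of 10 carriers of serine, glycine or folate tested on HFD, 1 was called higher and 1 lower. Sfxn1, the carrier that brings serine into mitochondria, had a log2 fold change of 1.00 ± 0.0931 (adjusted p = 4.63e-07), and Slc46a1, a folate transporter, of -0.57 ± 0.113 (adjusted p = 0.00136 by edgeR). On chow and in BAT edgeR called 0 of the 10, with 2 and 3 at an unadjusted p under 0.05, and DESeq2 called 0 and 2. The KI difference of Sfxn1 was smaller in BAT than in inguinal WAT on HFD by -0.78 ± 0.144 (adjusted p = 8.16e-04). Of 6 purine synthesis genes, whose pathway takes up formyl folate, 3 were called higher on HFD, Pfas (0.54 ± 0.132), Adsl (0.33 ± 0.0647) and Gart (0.19 ± 0.0469), and 0 on chow or in BAT by edgeR, with 3 and 0 at an unadjusted p under 0.05 and 1 and 0 called by DESeq2.

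Of 7 transcription factors known to act on these enzymes, 4 were called higher on HFD, 2 on chow and 2 in BAT. The list medians were 0.45, 0.46 and 0.68. Atf5 had log2 fold changes of 2.55 ± 0.172 on HFD, 2.08 ± 0.185 on chow and 1.93 ± 0.193 in BAT (adjusted p = 1.07e-08, 1.57e-05 and 3.40e-05). Ddit3, which encodes Chop, had 1.37 ± 0.104, 1.22 ± 0.111 and 2.15 ± 0.399 (adjusted p = 4.04e-08, 1.88e-05 and 0.00851 by edgeR). Atf4 (1.06 ± 0.1003) and Cebpg (0.45 ± 0.0789) were called on HFD. Neither was called on chow or in BAT, where Atf4 had 0.60 ± 0.132 and 0.68 ± 0.153 (adjusted p = 0.0112 and 0.0148 by edgeR). For Cebpg these values were 0.35 ± 0.0951 and 0.48 ± 0.128 (adjusted p = 0.0325 and 0.0329 by edgeR). DESeq2 called both genes in all 3 settings, and it also called Myc higher in BAT.

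**Figure D4:**
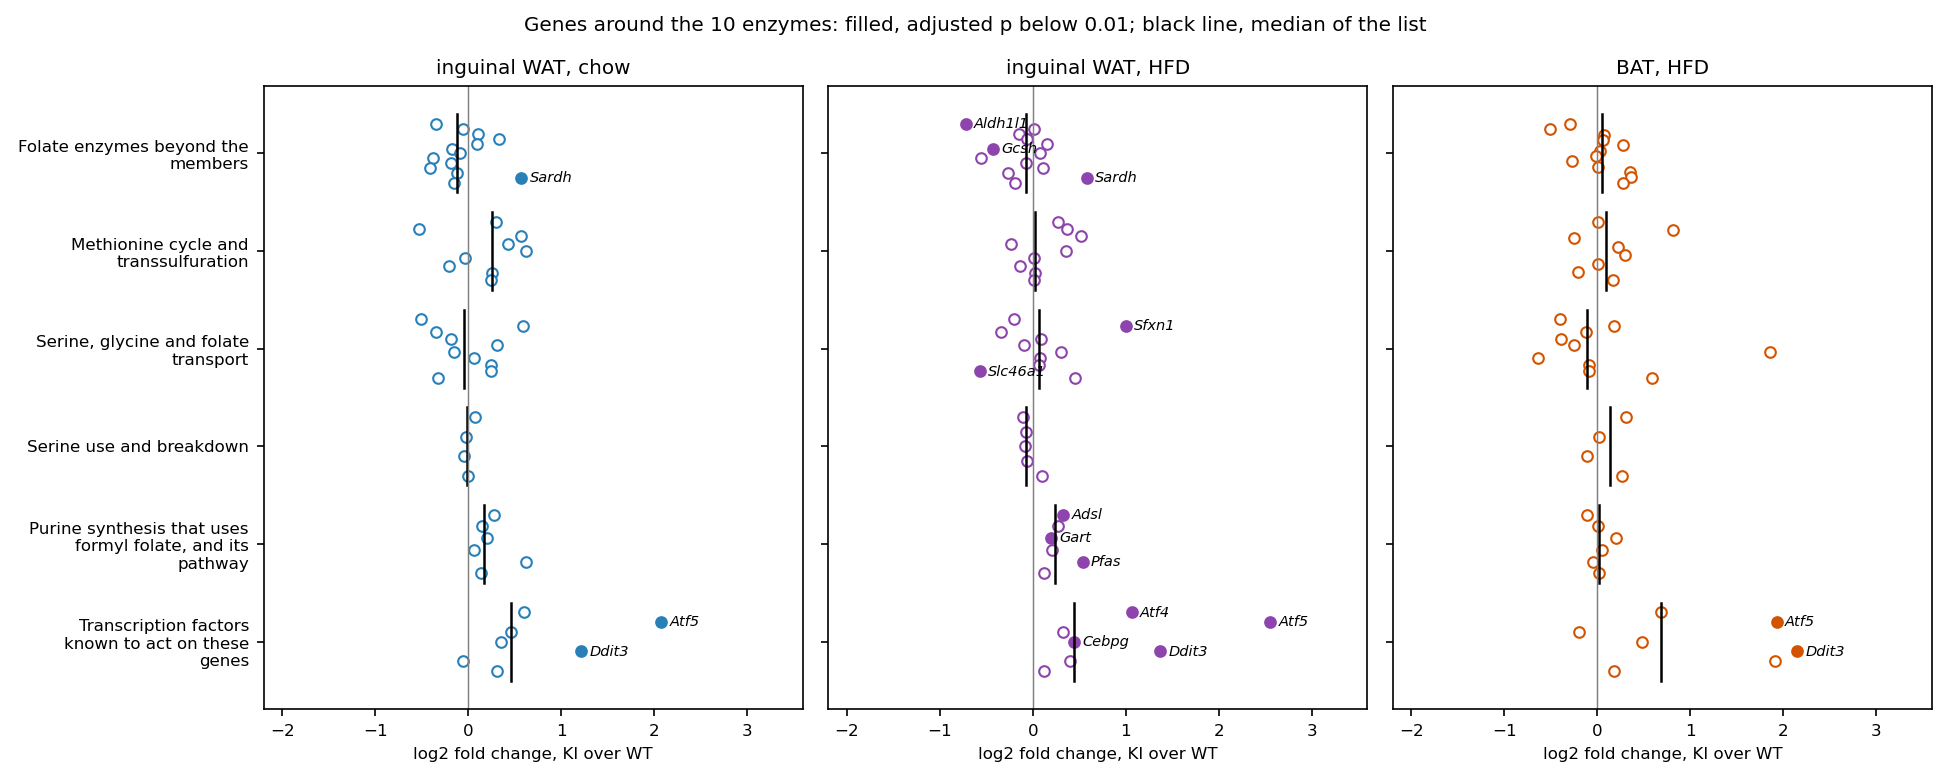
Log2 fold change between KI and WT mice (horizontal axis) of the tested genes of 6 lists around the 10 enzymes in each of the 3 settings, filled where the adjusted p was below 0.01 by edgeR, with the median of each list as a black line. Atf5 and Ddit3 are filled in all 3 panels, and the methionine cycle and serine breakdown lists hold no filled point.

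Reads of 5 members could be shared with a gene on the other strand, since the strand setting of the counting was not given in the sources used here. An exon of Shmt2 overlaps one of Ndufa4l2, Shmt1 one of Smcr8, Psph one of Cct6a, Mthfd1 one of Gm47525 and Aldh1l2 one of D10Wsu102e in the GENCODE annotation of GRCm38. Mthfd2, Phgdh and Psat1 overlap no exon on the other strand. Aldh1l1, the partner of Aldh1l2 in the ratios, overlaps an exon of Gm45901 on its own strand and of Gm15756 on the other. The part of these overlaps in its counts was not tested.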

How the data were processed

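RNA from whole inguinal WAT and BAT of male mice was sequenced as paired reads from polyadenylated RNA. Per the labels and the study's methods, the authors trimmed reads with cutadapt, aligned them with STAR to GRCm38 and counted them per gene with featureCounts, and they deposited whole-number counts in 3 tables (versions, annotation release and strand setting not given in the sources used here). The 57 series samples correspond to 41 columns, 1 per mouse and tissue. Of the 54838 entries of each table, 1884 had neither a length nor a count and 101 repeated a symbol with identical counts, which left 52853 genes.

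Each KI against WT comparison used its own table: edgeR 4.0.16, TMM factors, the default expression filter (a minimum of counts set by group size) and a robust quasi-likelihood F test with Benjamini-Hochberg adjustment over all genes tested. SE is the log2 fold change divided by the root of F. Interactions used 2 tables and diets and depots 1 fit of 6 groups. Calls are at an adjusted p below 0.01, the level the study used. RPKM uses the deposited gene length. Isoenzyme ratios add 0.5 counts, and their exact permutation tests are called at 0.05. The scripts were tested on simulated data. DESeq2 1.42.0, other factors, filters and thresholds, and each mouse left out were tried. Replicates within a group are separate mice. The members and gene lists were chosen with earlier results of these data known. Named genes are the 10 members, Mfn2, Aldh1l1, the called genes of each pathway list (at most 4 by size) and the 5 genes most like Mthfd2.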

Additional observations from a re-analysis of the deposited data

Results flagged for a closer look

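In 60 combinations of an enzyme and a group, 9 values, from 8 samples, had a gap to the nearest other sample that was large against the range of the group, where chance gives about 1 in 20. Mthfd2 was high in 3 WT mice: inguinal WAT mouse 4 on chow (5.04 RPKM, the others 1.57 to 2.82), inguinal WAT mouse 2 on HFD (3.76 RPKM, the others 1.80 to 2.71) and BAT mouse 4 (3.03 RPKM, the others 0.917 to 1.70). Mouse 2 on HFD also had 385 CPM of lymphocyte markers and 1021 CPM of muscle markers, and their part was not tested.

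KI mouse 2 on HFD, the one with the most lymphocyte marker RNA, was high in Mthfd1l (2.30 RPKM, the others 0.953 to 1.45) and low in Phgdh (106 RPKM, the others 146 to 171). WT mouse 2 in BAT, with 2639 CPM of muscle markers, was low in Phgdh (10.8 RPKM, the others 18.4 to 21.8). KI mouse 4 in BAT was low in Shmt1 (13.03 RPKM, the others 16.1 to 17.8), KI mouse 1 on chow was high in Psph (10.3 RPKM, the others 6.61 to 7.88), and KI mouse 5 on HFD was high in Aldh1l2 (0.336 RPKM, the others 0.138 to 0.220).

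The KI difference of Phgdh was larger on HFD than on chow by 0.89 on the log2 scale, by the interaction test given above.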

How the results depend on the processing

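At an adjusted p below 0.01 the calls of Mthfd2 in the 3 KI against WT comparisons, of Phgdh on HFD and of the Phgdh diet interaction held in every other fit run, and the last was lost at a threshold of 0.001. The number of members called in KI against WT comparisons became 5 on HFD, 4 on chow and 4 in BAT at an adjusted p below 0.05, 4 on chow with DESeq2, 2 on chow without the mice with muscle or lymphocyte markers (an alternative chosen after seeing the data), and 1 in BAT at a threshold of 0.001. For the diet interaction it became 0 at 0.001, and for the depot interaction 2 at 0.05 and 1 with DESeq2. Leaving out each mouse gave 3 to 3 members on HFD, 1 to 2 on chow, 1 to 3 in BAT, 1 to 1 for the diet interaction and 0 to 1 for the depot interaction. DESeq2 called more genes than edgeR in each KI against WT comparison: 2754 against 1886 on HFD, 1107 against 472 on chow and 717 against 243 in BAT. The fit of all 6 groups called 1242, 1088 and 834, and leaving out each mouse 1460 to 2338 on HFD, 288 to 497 on chow and 134 to 313 in BAT. For the diet interaction edgeR called 110 genes, DESeq2 409, a minimum of 10 counts 168 and the mice with few muscle and lymphocyte markers 15, and for the depot interaction 485, 848, 482 and 263. Where a count moved, the cause was not tested beyond what the threshold or the smaller number of mice itself sets.

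Mthfd1l changed sign near 0: on HFD 0.0131 without the mice with muscle or lymphocyte markers, in BAT 0.00901 in the fit of 6 groups, and with mice left out from -0.25 to 0.0214 on HFD, from -0.0432 to 0.37 on chow and from -0.21 to 0.20 in BAT. Psat1 on HFD lost its call in the fit of 6 groups (0.62, adjusted p = 0.0128 by edgeR), and in BAT without the low-count filter (adjusted p = 0.0353 by edgeR). The Shmt2 over Shmt1 ratio in BAT passed 0.05 without the mice with muscle markers (-0.68, exact permutation, adjusted p = 0.00893).

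Over fits that left out a mouse, the ratio differences ran as follows. Shmt2 over Shmt1 ran from -0.14 to 0.0538 on HFD, from -0.43 to -0.23 on chow and from -0.58 to -0.36 in BAT. Mthfd1l over Mthfd1 ran from -0.48 to -0.26 on HFD, from -0.20 to 0.19 on chow and from -0.62 to -0.20 in BAT. Those with Mthfd2 stayed past 0.05 in each of these fits.

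The sources used here do not say whether mouse numbers pair the mice. Deviations of same-numbered KI and WT mice correlated from -0.25 to 0.64 on HFD, from -0.27 to 0.18 on chow and from -0.08 to 0.43 in BAT. They were over 0.1 in 2 of 8, 2 of 6 and 3 of 6 pairs, which does not settle it. With the replicate block 3, 1 and 4 members were called on HFD, chow and in BAT, the fourth in BAT being Shmt1, and over all genes 1545, 127 and 363. With the block the ratio differences were 2.61 for Mthfd2 over Mthfd1, 2.93 for Mthfd2 over Mthfd2l and 1.21 for Aldh1l2 over Aldh1l1 on chow, and 3.20 and 3.97 for those with Mthfd2 in BAT, each with an exact sign-flip p of 0.0313, the smallest 6 pairs allow (adjusted p = 0.0521).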
